A study of Mus musculus with 5 samples.

Results

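The 8 genes described here were chosen by name among the 32285 genes of the count tables: the CCN family members Ccn1, Ccn2, Ccn3, Ccn4 and Ccn5, the thrombospondin gene Thbs1, and Ankrd1 and Amotl2. All 8 were found under these symbols. They were measured by single-cell RNA sequencing of 3T3-L1, mouse fibroblasts that turn into adipocytes in culture. The cells came from 5 samples sequenced as 1 library each. P-G3, a PAMAM polymer, was given at 10 µg/mL from the first day of induction in the cultures labelled day 3 P-G3 and day 6 P-G3. The cultures labelled day 3 untreated and day 6 untreated received no polymer. All 4 had been induced with a cocktail of insulin, dexamethasone and isobutylmethylxanthine, followed by medium with insulin alone. The day 0 culture is labelled as fibroblasts without adipogenic treatment or polymer.

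With 1 library per group, no difference has a replicate check and no test was made across cultures. The 95% intervals given here cover counting error only. A UMI is a tag that counts 1 captured RNA molecule, and levels are counts per 1000000 UMIs of the library's kept cells (CPM). The reads come from the 3′ end, so levels of different genes are not ranked against each other. A log2 ratio is that of CPM + 1, unless a ratio without this pseudocount is named. A gene counted as measured in a comparison if 1 of the libraries had 5 CPM or more, and 2-fold in that ratio was the threshold for calling it higher or lower.

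CCN proteins are secreted into the matrix around a cell, where they bind integrins, heparan sulfate and growth factors without forming fibres, which is why they are called matricellular. Several of the genes are among the best known targets of YAP and TAZ, coactivators that enter the nucleus when the Hippo kinases are inactive, as in spread cells on a stiff surface, and that act through the TEAD transcription factors. In fat precursors, rounding of the cell and loss of tension on the actin skeleton accompany the start of adipogenesis.

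The short TEAD binding motif is CATTCC, or GGAATG on the other strand. RefSeq promoter sequences (GRCm38.p6) were on hand for 3 of the 8 members, Ccn1, Ankrd1 and Amotl2, and each held the motif within the 250 bases upstream of its start. Of all 32851 promoters in that table, 12.6% held it in the same window. The Ccn1 promoter is shown whole because Ccn1 is the member of the 3 with the widest range of levels on days 3 and 6. It lies on the minus strand at chr3:145649986-145650235. The other lines show 30 bases around each remaining match. Capitals mark the motif, and all sequences read 5′ to 3′ on the strand of the gene.
Ccn1 promoter: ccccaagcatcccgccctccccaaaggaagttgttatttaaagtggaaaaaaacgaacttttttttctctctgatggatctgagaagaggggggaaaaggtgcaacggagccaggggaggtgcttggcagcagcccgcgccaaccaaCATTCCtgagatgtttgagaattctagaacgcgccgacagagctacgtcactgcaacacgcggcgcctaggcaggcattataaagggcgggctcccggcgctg
Ankrd1, chr19:36120037-36120066: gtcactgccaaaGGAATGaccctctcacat
Ankrd1, chr19:36119950-36119979: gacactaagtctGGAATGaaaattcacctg
Amotl2, chr9:102717727-102717756: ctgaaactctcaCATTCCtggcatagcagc
The match begins 103 bases upstream of the start in Ccn1, 65 bases in Amotl2, and 210 and 123 bases in Ankrd1, a gene on the minus strand. Neither the AP-1 motif TGANTCA, held by 6.75% of all promoters, nor the CArG box of the serum response factor, held by 1.47%, matched in these 3 windows on either strand. In Ankrd1 and Amotl2 the window overlaps an annotated exon of the same gene. The matches are letters in a window and say nothing of binding in these cells.

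There were 3210 cells from day 0, 3893 from day 3 P-G3, 3596 from day 3 untreated, 3546 from day 6 P-G3 and 2468 from day 6 untreated after filtering, with 88432894 to 179221992 UMIs per library. Pairs of libraries shared 1 to 6 cell barcodes. The summed level of 16 adipocyte markers was 197 CPM on day 0, 13949 CPM on day 3 with P-G3, 9264 CPM on day 3 untreated, 42268 CPM on day 6 with P-G3 and 35930 CPM on day 6 untreated, with Cfd at 0 on day 0. That of 12 preadipocyte markers was 9840, 1959, 3699, 1297 and 2816 CPM in the same order. Among markers of other cell types, 6 macrophage genes summed to 1.86 to 3.33 CPM with Adgre1 and Tyrobp at 0 in every library, and 6 endothelial genes to 0.365 to 1.33 CPM with Tie1 at 0. The 6 smooth muscle and pericyte genes summed to 5.53 to 34.2 CPM with Kcnj8 at 0, and the 6 mesothelial genes to 7.96 to 25.6 CPM.

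Of the 8 members, 5 reached 5 CPM in at least 1 library, namely Ccn1, Ccn4, Ccn5, Thbs1 and Amotl2. Ccn2, Ccn3 and Ankrd1 did not, and their levels rest on few molecules. Day 0 had the highest level of Ccn1, Ccn2, Ccn4, Ccn5, Thbs1 and Ankrd1, though the intervals of Ccn1 on day 0 and day 3 untreated overlap. Amotl2 was highest on day 6 untreated, and Ccn3 on day 3 untreated.

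Ccn1, also known as Cyr61, encodes an integrin ligand that cells make quickly when stretched or given serum (ENSMUSG00000028195, chromosome 3, 145646976 to 145649981, GRCm38). Its level was 42.4 CPM on day 0, 17.3 CPM on day 3 with P-G3, 42.2 CPM on day 3 untreated, 2.96 CPM on day 6 with P-G3 and 10.6 CPM on day 6 untreated. Both P-G3 libraries were below the untreated library of their day, and the day 3 untreated and day 0 intervals, 41.1 to 43.3 and 41.4 to 43.4 CPM, overlapped. The genes with the most similar profile over the 5 libraries among 6046 candidates were Fstl1, a secreted follistatin-like protein, Vgll3, a TEAD cofactor, and Fst, which encodes the activin-binding follistatin. Their root mean square differences from Ccn1 were 0.10, 0.19 and 0.21 on the log2 scale after centring each profile.

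Ccn2, also known as Ctgf, encodes the connective tissue growth factor of fibrosis research (ENSMUSG00000019997, chromosome 10, 24595442 to 24598683). It had 354 UMIs on day 0, 10 on day 3 P-G3, 111 on day 3 untreated, 0 on day 6 P-G3 and 4 on day 6 untreated. In CPM these were 2.23, 0.0558, 0.794, 0 and 0.0452, and 3 counts in the day 6 P-G3 library would be 0.0279 CPM. The day 0 and day 3 untreated intervals stood apart from each other and from the other 3 libraries. On day 3, Ccn2 was 14.2-fold lower with P-G3 than untreated, a log2 ratio without pseudocount of -3.83 (-4.93 to -2.90). A difference between the day 6 libraries was not detectable at this depth.

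Ccn3, also known as Nov, encodes a CCN protein that in other cells counters the action of CCN2 (ENSMUSG00000037362, chromosome 15, 54745702 to 54754039). It had 14 UMIs on day 0, 6 on day 3 P-G3, 33 on day 3 untreated, 1 on day 6 P-G3 and 3 on day 6 untreated. The day 3 untreated level of 0.236 CPM, with an interval of 0.163 to 0.332, lay above the intervals of the other 4 libraries, and those of neighbouring levels among the other 4 overlapped. Ccn6, the remaining family member and not one of the 8, had 0 to 2 UMIs per library.

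Ccn4, also known as Wisp1, encodes a CCN protein first described as a Wnt target (ENSMUSG00000005124, chromosome 15, 66891320 to 66923201). Its level was 54.4 CPM on day 0, 6.80 CPM on day 3 with P-G3, 15.3 CPM on day 3 untreated, 17.2 CPM on day 6 with P-G3 and 34.7 CPM on day 6 untreated. The lowest levels were those of day 3, so that Ccn4 ran down and up again over the time course both with and without P-G3. No 2 of its 5 intervals overlapped.

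Ccn5, also known as Wisp2, encodes the CCN protein that lacks the C-terminal domain of the others and is secreted by fat precursors (ENSMUSG00000027656, chromosome 2, 163820861 to 163833146). Its level was 124 CPM on day 0, 3.36 CPM on day 3 with P-G3, 9.60 CPM on day 3 untreated, 0.735 CPM on day 6 with P-G3 and 2.45 CPM on day 6 untreated. From high to low the libraries were day 0, day 3 untreated, day 3 with P-G3, day 6 untreated and day 6 with P-G3, with no overlap between neighbours. The nearest profiles were those of the chemokine Ccl7 (0.29), the metalloproteinase inhibitor Timp3 (0.31) and Tagln (0.32), which encodes the actin-binding transgelin.

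Thbs1 encodes thrombospondin 1, a matricellular protein that binds CD47 and CD36 and activates latent TGF-beta (ENSMUSG00000040152, chromosome 2, 118111876 to 118127133). Its level was 59.6 CPM on day 0, 2.14 CPM on day 3 with P-G3, 14.9 CPM on day 3 untreated, 1.16 CPM on day 6 with P-G3 and 5.92 CPM on day 6 untreated. Here the day 3 P-G3 level was below the day 6 untreated level, unlike in Ccn1 and Ccn5, and no intervals overlapped. Its nearest profiles were the fibrillin gene Fbn1 (0.32), the macrophage growth factor gene Csf1 (0.34) and Klhdc8a (0.38).

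Ankrd1 encodes an ankyrin repeat protein known from stressed muscle and widely used as a readout of YAP activity (ENSMUSG00000024803, chromosome 19, 36111961 to 36120099). It had 333 UMIs on day 0, 3 on day 3 P-G3, 5 on day 3 untreated, 2 on day 6 P-G3 and 1 on day 6 untreated. Of the 5 libraries only day 0 stood apart. Ankrd1 was at 0.0358 CPM on day 3 untreated against 2.10 CPM on day 0, 58.7-fold lower, with an interval of -7.51 to -4.64 on the log2 scale without pseudocount.

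Amotl2 encodes an angiomotin that holds YAP at cell junctions and is itself a YAP target (ENSMUSG00000032531, chromosome 9, 102716672 to 102733418). Its level was 33.0 CPM on day 0, 15.0 CPM on day 3 with P-G3, 26.2 CPM on day 3 untreated, 31.9 CPM on day 6 with P-G3 and 52.8 CPM on day 6 untreated. It was the only one of the 5 measured members with a day 6 untreated level above day 0, and the day 0 and day 6 P-G3 intervals overlapped.

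**Figure D1:**
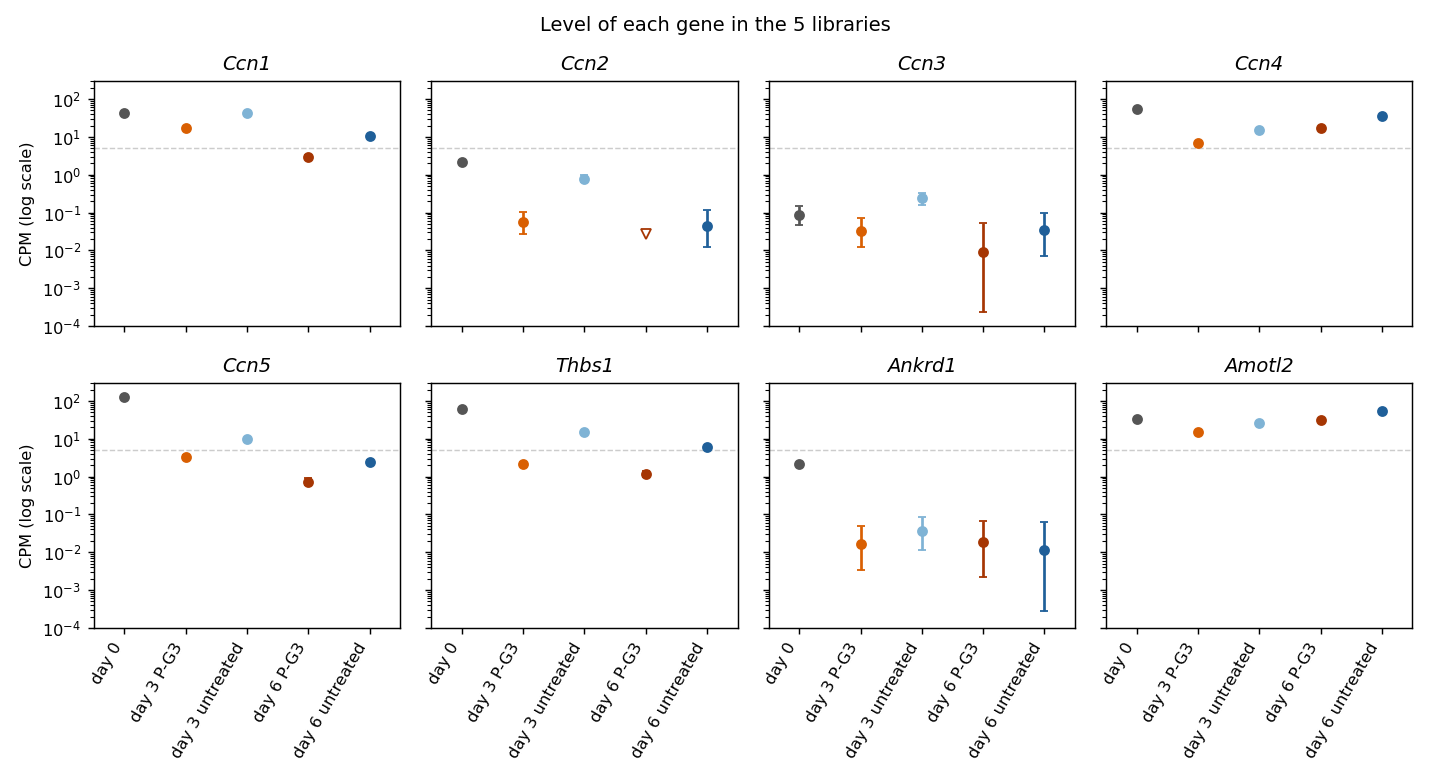
Level of each of the 8 genes in the 5 libraries, in CPM on a log scale, with exact Poisson 95% intervals (counting error only), a dashed line at 5 CPM and an open triangle at 3 counts where a library had no UMI. Day 0 is highest for 6 genes, Amotl2 peaks on day 6 untreated at 52.8 CPM, and Ccn2, Ccn3 and Ankrd1 stay below the line.

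Set against day 0, the untreated day 3 culture had lower Ccn4, Ccn5 and Thbs1 and about equal Ccn1. Ccn5 was the member furthest down, with a log2 ratio of -3.56, followed by Thbs1 at -1.93 and Ccn4 at -1.77. Amotl2 stood at -0.32 and Ccn1 at -0.01, and Ccn1 at 0.30 when every cell was weighted equally. Of the 5 members measured, 3 were lower past 2-fold and none was higher, where 3.99% of the 9454 genes measured were lower and 6.40% higher. The members' median was -1.77 and that of all genes 0.08. Median-of-ratios scaling moved the median of all genes to -0.06 and the split of all genes past 2-fold to 470 higher and 502 lower, in place of 605 and 377, and left the same 3 members past 2-fold.

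Between day 3 and day 6 the untreated members went separate ways. Ccn1 (-1.89), Ccn5 (-1.62) and Thbs1 (-1.20) were lower on day 6 than on day 3, Ccn4 (1.13) was higher, and Amotl2 (0.98) lay just under 2-fold higher. Among cells with under 0.5% of UMIs from adipocyte markers the direction turned for Thbs1 (1.32) and Ccn5 (0.53), and Ccn1 was at 55.5 CPM on day 6 against 58.3 CPM on day 3. On day 6, 10 of these cells held 77.4% of their Thbs1 UMIs and 52.5% of their Ccn5 UMIs. In the whole libraries 3 members were lower past 2-fold and 1 higher, beside 5.92% and 6.97% of all genes measured. From day 0 to day 6 as a whole, Ccn5 (-5.18), Thbs1 (-3.13) and Ccn1 (-1.90) were lower past 2-fold, as were 10.7% of all genes, and 16.2% were higher. Ccn4 stood at -0.64 and Amotl2 at 0.66 in that comparison, where the median of all genes was 0.13, or -0.01 with TMM scaling. The split of all genes was 1573 higher and 1034 lower, and 1279 and 1265 with median-of-ratios scaling.

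Under P-G3 the step between day 3 and day 6 had the same shape for Ccn1, Ccn4 and Amotl2, the only members above 5 CPM in either of these libraries. Ccn1 was lower on day 6 with P-G3 than on day 3 with P-G3 (-2.21), while Ccn4 (1.22) and Amotl2 (1.04) were higher. Of all genes measured, 7.08% were lower and 6.04% higher. Below the minimum level, Ccn5 had a ratio of -1.33 and Thbs1 one of -0.54.

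All 5 measured members were lower with P-G3 than untreated on day 3, though Amotl2 did not reach 2-fold. Thbs1 differed most, at 2.14 CPM with P-G3 against 14.9 CPM untreated, a log2 ratio of -2.34. Ccn5 followed at -1.28, Ccn1 at -1.24, Ccn4 at -1.06 and Amotl2 at -0.77. The 4 members past 2-fold compare with 2.38% of the 9215 genes measured, and 0.109% were higher past 2-fold. Without the pseudocount, Ccn3 was 7.05-fold lower with P-G3, on 6 UMIs with P-G3 against 33 untreated (-4.36 to -1.55 on the log2 scale), and Ankrd1, on 3 UMIs with P-G3 against 5 untreated, did not differ beyond counting error.

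On day 6 the P-G3 library again had the lower level of all 5. Thbs1 was at 1.16 CPM with P-G3 against 5.92 CPM untreated (-1.68), and Ccn1 at 2.96 CPM with P-G3 against 10.6 CPM untreated (-1.55). Ccn4 (-0.97) and Amotl2 (-0.71) did not reach 2-fold. Ccn5, under 5 CPM in both libraries, stood at -0.99 with the pseudocount and at -1.74 (-2.13 to -1.36) without it. The 2 members past 2-fold, of 4 measured, compare with 4.12% of the 9137 genes measured that were lower, and 0.109% that were higher. Without the 1% of cells richest in the members, Thbs1 was under 5 CPM in both libraries (-1.28), which left Ccn1 alone.

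Most genes had a ratio below 0 in both P-G3 comparisons, and the size of a member's ratio depends on how that shift is treated. The median over all measured genes was -0.23 on day 3 and -0.34 on day 6. It was 0.00 and -0.02 after TMM scaling and 0.03 and 0.02 after median-of-ratios scaling, which both set the libraries to a common typical gene. The split of genes past 2-fold on day 3 was 10 higher and 219 lower as measured, and 35 and 84 with TMM scaling. On day 6 it was 10 and 376 as measured, and 65 and 80 with TMM scaling. Median-of-ratios scaling gave 36 higher and 71 lower on day 3, and 92 and 69 on day 6. Under TMM the members' ratios on day 3 were -2.14 for Thbs1, -1.08 for Ccn5, -1.01 for Ccn1, -0.85 for Ccn4 and -0.54 for Amotl2. On day 6 they were -1.44 for Thbs1, -1.27 for Ccn1, -0.80 for Ccn5, -0.64 for Ccn4 and -0.38 for Amotl2. Every one of these stayed below 0, and Thbs1, Ccn1 and Ccn5 were the lowest of the 5 on both days. Under median-of-ratios scaling 2 members were past 2-fold on day 3, Thbs1 at -2.11 and Ccn5 at -1.05, and Ccn1 stood at -0.98.

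Long transcripts had lower P-G3 ratios than short ones across all genes, with a Spearman rho of -0.60 on day 3 and -0.62 on day 6. Ccn4, Thbs1 and Amotl2 are long, at 5097, 5848 and 4328 nt in their longest coding transcript, and Ccn1 and Ccn5 are short, at 2019 and 1719 nt. After the median ratio of genes of like length was subtracted, Amotl2 stood at -0.41 on day 3 and -0.17 on day 6, and Ccn4 at -0.65 and -0.43. Ccn1 stayed past 2-fold at -1.15 and -1.41, Thbs1 at -1.86 and -1.05, and Ccn5 at -1.25 on day 3, with -0.92 on day 6. What part transcript length has in the ratios was not tested.

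**Figure D2:**
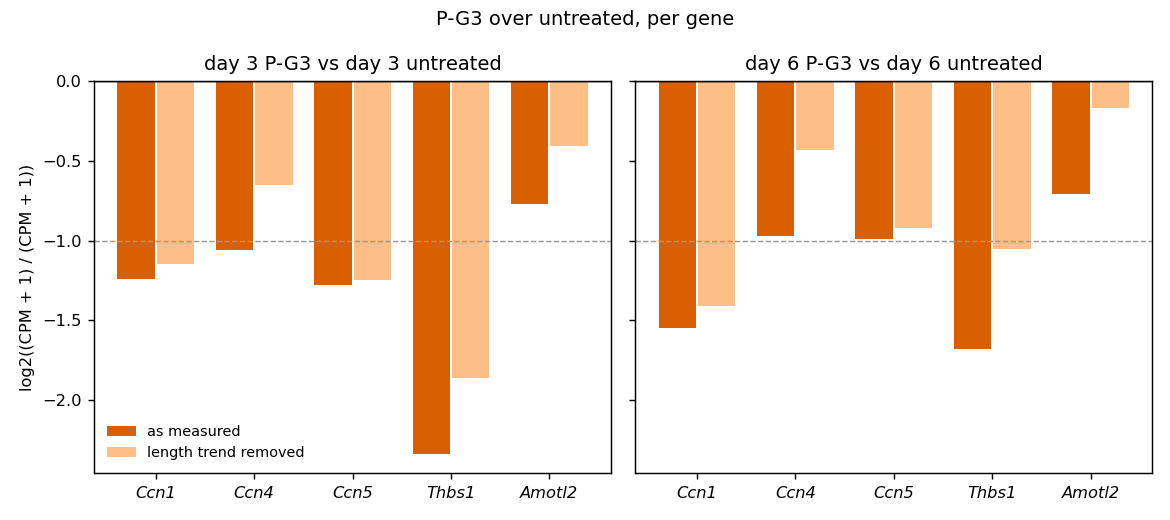
Log2 ratio of CPM + 1 with P-G3 over untreated for the 5 members above 5 CPM in at least 1 library, on day 3 (left) and day 6 (right), as measured (dark bars) and with the length trend removed (light bars); the dashed line is 2-fold. All bars lie below 0, with Thbs1 lowest on day 3 at -2.34, and the light bars of Ccn4, Thbs1 and Amotl2 are clearly shorter than their dark ones.

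The share of cells with a molecule of a member was compared after thinning each cell to 5000 UMIs, because cells differed in depth. On day 0, 10 cells were too shallow for this and were left out, with 93 on day 3 P-G3, 96 on day 3 untreated, 1461 on day 6 P-G3 and 813 on day 6 untreated. No cell class that should lack these genes was at hand to measure what free RNA adds to a share. Ccn5 was found in 41.2% of thinned cells on day 0, 2.37% on day 3 P-G3, 4.29% on day 3 untreated, 0.288% on day 6 P-G3 and 1.45% on day 6 untreated. Its day 0 share stood apart from those of all later libraries. Ccn1 was found in 17.7%, 9.61%, 18.5%, 1.87% and 4.65% of cells in the same order of libraries. Thbs1 was found in 19.8%, 1.26%, 6.34%, 0.767% and 1.87%. For each of these 3 genes the smallest share was that of day 6 with P-G3, though for Thbs1 its interval overlapped that of day 3 with P-G3.

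Ccn4 was found in 22.8% of thinned cells on day 0, 3.29% on day 3 P-G3, 7.57% on day 3 untreated, 8.01% on day 6 P-G3 and 13.2% on day 6 untreated. Amotl2 was found in 13.9%, 6.42%, 11.6%, 13.0% and 21.0% in that order. For both genes the smallest share was that of day 3 with P-G3, as with their levels. Without thinning, Ccn5 was found in 90.3% of day 0 cells and Ccn1 in 63.5%. Ccn2 was found in 0.906% of thinned day 0 cells, and Ankrd1 in 1.25%.

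**Figure D3:**
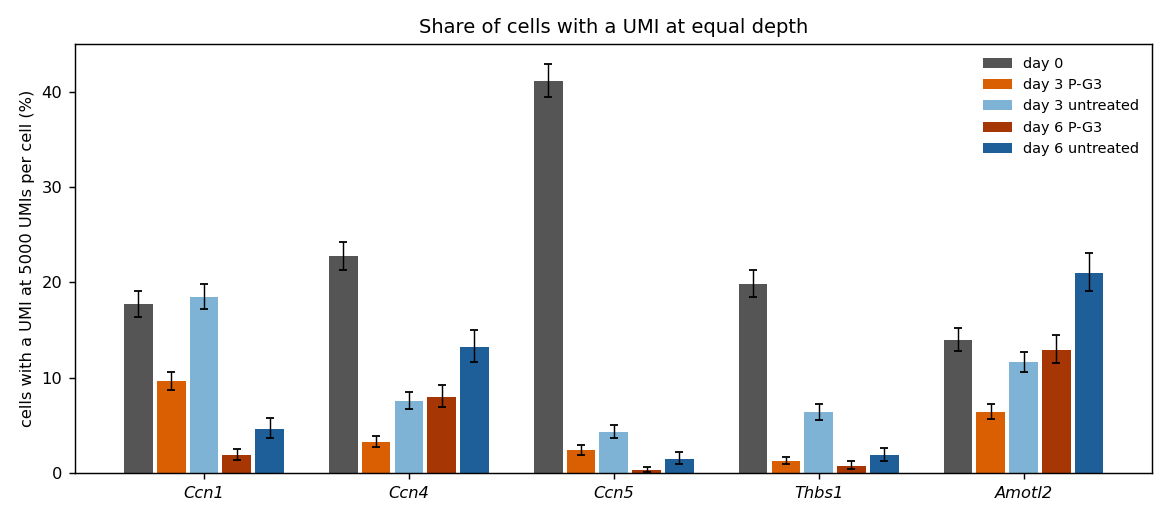
Share of cells with at least 1 UMI of each of 5 members after thinning to 5000 UMIs per cell, in percent, by library, with exact Clopper-Pearson 95% intervals (counting error only). Ccn5 on day 0 is the tallest bar at 41.2%, and each P-G3 bar is below the untreated bar of its day.

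Thbs1 was the most unevenly spread of the 5 over cells of day 0 and of day 3 untreated. In thinned cells its variance over its mean was 1.82 on day 0 and 2.03 on day 3 untreated, where a random draw from like cells gives a value near 1, and the other 4 members ranged from 1.12 to 1.59 in these libraries. On day 3 untreated, 681 of 3596 cells held all its unthinned UMIs, and 1 cell held 106 of them. In single cells of at least 10000 UMIs on day 0, Pearson's r of log values was 0.36 between Ccn1 and Thbs1, 0.36 between Thbs1 and Amotl2 and 0.32 between Ccn1 and Amotl2, over 3182 cells of 1 library. Thbs1 had r = 0.05 with Ccn5 in the same cells. On day 3 untreated the 3 pairs had r = 0.35, 0.38 and 0.24 over 3393 cells. On day 6 untreated, Ccn1 with Thbs1 was again at r = 0.36, while Thbs1 with Amotl2 was at 0.13 and Ccn1 with Amotl2 at 0.07. Ccn1 with Amotl2 was at r = 0.05 on day 3 with P-G3. These are descriptions of cells that share a library and vary in depth.

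Within the differentiating cultures, the members were distributed unevenly over cells with few and many adipocyte transcripts. When cells of a library were ranked into tertiles by their share of UMIs from adipocyte markers, 18 of the 21 pairs of member and library with at least 50 UMIs on days 3 and 6 were higher in the lowest tertile than in the highest. The same held for 53.8% of 48673 such pairs over all genes but the adipocyte markers. The exceptions were Amotl2 on day 3 with P-G3 and in both day 6 libraries. Thbs1 on day 6 untreated was at 18.1 CPM in the lowest tertile and 1.11 CPM in the highest, and Ccn1 at 25.2 and 4.05 CPM. The tertiles of Amotl2 on that day ran the other way, at 40.8 CPM in the lowest and 59.0 CPM in the highest. Ccn4 on day 6 was highest in the middle tertile in both libraries. From lowest to highest it was at 19.3, 21.0 and 12.7 CPM with P-G3 and 38.7, 44.3 and 21.2 CPM untreated. With P-G3 the intervals of the lowest and middle tertile overlapped, and median depth was 16367, 7716 and 34630 UMIs. In tertiles of the P-G3 cells with at least 10000 UMIs these intervals lay apart, at 18.6 CPM in the lowest and 22.3 CPM in the middle. The tertiles are ranges of a score, not cell types, and they differ between libraries, so fixed ranges were used to compare libraries.

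Cells with under 0.5% of their UMIs from adipocyte markers, and at least 10000 UMIs, numbered 3182 on day 0, 1899 on day 3 P-G3, 2429 on day 3 untreated, 102 on day 6 P-G3 and 163 on day 6 untreated. In these cells Thbs1 was at 59.6 CPM on day 0, 4.96 CPM on day 3 with P-G3, 23.4 CPM on day 3 untreated, 8.84 CPM on day 6 with P-G3 and 59.7 CPM on day 6 untreated. The summed Thbs1 level of these day 6 untreated cells was that of day 0 within counting error, but few cells carried it. Of the 163 cells, 44 had a Thbs1 UMI (27.0%), and 10 cells held 254 of the 328 UMIs, 76 of them in 1 cell. On day 0, 63.7% of the 3182 cells had one. Ccn1 was at 42.4, 29.3, 58.3, 21.6 and 55.5 CPM in the same order. Its summed level on day 6 untreated was here above day 0, the reverse of the whole libraries. The share of these cells with a Ccn1 UMI was lower, however, at 44.2% on day 6 untreated against 63.95% on day 0. These shares of Thbs1 and Ccn1 were taken without thinning. The 163 cells held 5498576 UMIs and the 3182 cells 158563186, so depth per cell was lower on day 6 untreated. The part of depth in the lower shares was not tested. On day 6 untreated, 10 cells held 113 of the 305 Ccn1 UMIs. Ccn5 remained far below its day 0 level of 124 CPM, at 6.88, 14.6, 3.28 and 21.5 CPM on the later days in that order.

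The lower levels with P-G3 were also seen within fixed ranges of adipocyte content, which do not match cells exactly. On day 3 untreated, the lowest and middle tertiles by adipocyte share both lay under 0.5%. Ccn5 was at 22.8 and 7.57 CPM in them, and Thbs1 at 34.0 and 14.8 CPM. The median share per cell was 0.496% on day 3 with P-G3 and 0.205% untreated. The part of such differences inside a range was not tested. Over 5 fixed ranges of the adipocyte marker share, the P-G3 level was below the untreated level in 23 of 25 pairs of member and range on day 3 and in 24 of 25 on day 6. Among all genes measured in those ranges, 72.0% of pairs of gene and range were lower with P-G3 on day 3 and 73.8% on day 6, so a lower level was the common case. These shares use only genes with 5 CPM or more in either library of the range, whereas the members were counted at any level. On day 3, Thbs1 and Ccn5 were under 5 CPM in both libraries in every range from 0.5% up. On day 6, Thbs1 and Ccn5 were so in every range from 1% up, and Ccn1 from 2% up. The intervals of the 2 libraries lay apart in 20 of the lower member pairs on each day. The exceptions were all at shares of 4% and above, namely Ccn5 on both days and Thbs1 on day 3, which had no UMI in either library. In the range under 0.5%, the log2 ratio of P-G3 to untreated on day 3 was -2.03 for Thbs1, -1.14 for Amotl2, -0.98 for Ccn5, -0.97 for Ccn1 and -0.97 for Ccn4. On day 6 it was -2.62 for Thbs1, -2.39 for Ccn5, -1.32 for Ccn1, -0.81 for Ccn4 and -0.79 for Amotl2. The day 6 ratios of Thbs1 and Ccn5 rest on few cells. Thbs1 had 27 UMIs in 11 of the 102 P-G3 cells, and Ccn5 10 UMIs in 9. In the untreated library, 10 cells held 77.4% of the Thbs1 UMIs and 52.5% of the Ccn5 UMIs of this range. The intervals do not cover such clumping. Among cells at 4% and above, Ccn1 was at 0.916 CPM with P-G3 against 4.34 CPM untreated on day 6, and Amotl2 at 36.3 CPM with P-G3 against 60.7 CPM untreated.

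**Figure D4:**
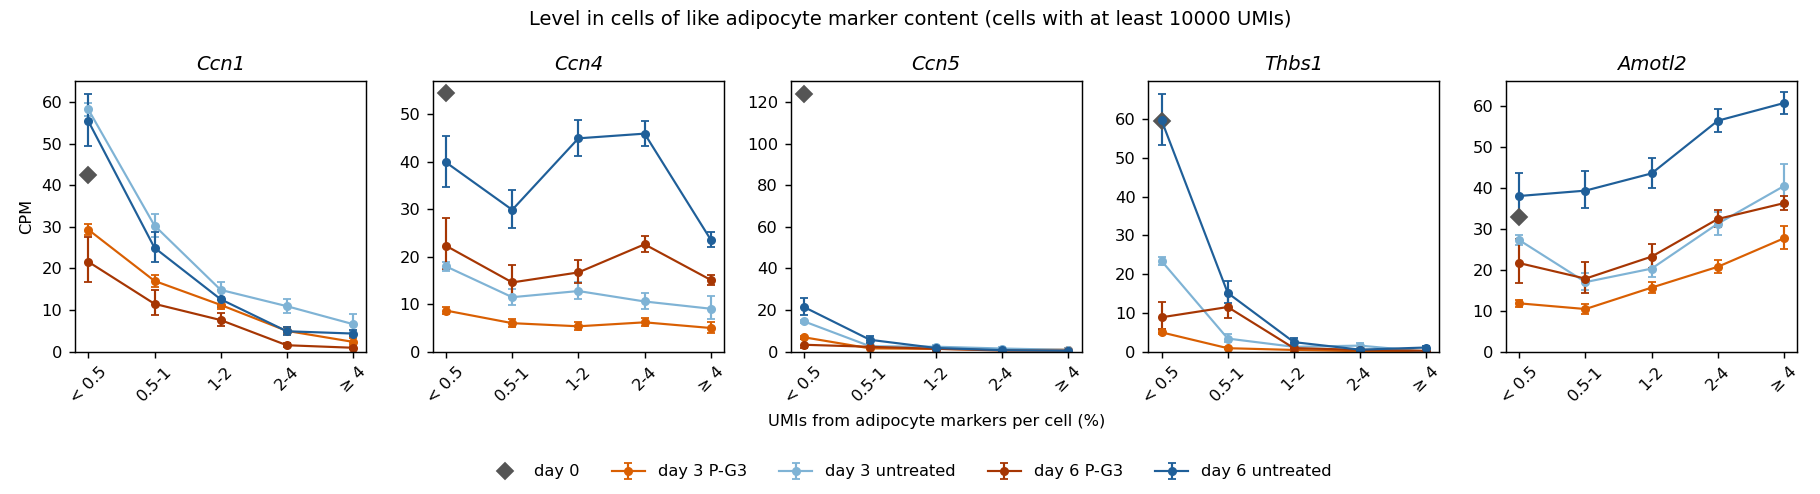
CPM of 5 members in cells with at least 10000 UMIs, by the percentage of a cell's UMIs from adipocyte markers, one line per library with exact Poisson 95% intervals (counting error only) and day 0, whose cells all lie below 0.5%, as a diamond. Ccn1 declines from range to range, Amotl2 is higher at 4% and above than under 0.5% in all 4 lines, and the P-G3 lines of Ccn1, Ccn4 and Amotl2 run below the untreated lines of their day.

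The share of UMIs from contractile genes and other targets of the serum response factor, an actin-sensitive transcription factor, also separated the cells by Thbs1, Ccn5 and Ccn1. On day 3 untreated, Thbs1 was at 2.44, 6.49 and 37.6 CPM in the lowest, middle and highest tertile of that share, Ccn5 at 3.31, 5.59 and 20.8 CPM, and Ccn1 at 27.6, 40.2 and 60.8 CPM. The median contractile share per cell was 0.516% on day 3 untreated and 1.48% on day 0. On day 0 the spread was smaller, with Thbs1 at 45.1, 51.9 and 79.4 CPM. On day 6 untreated, where the lowest tertile of all kept cells had a median of 6053 UMIs per cell, Thbs1 was at 0.901, 0.943 and 19.2 CPM in tertiles of the cells with at least 10000 UMIs. Between single cells of at least 10000 UMIs, Pearson's r of Thbs1 with the contractile share was 0.42 on day 3 untreated over 3393 cells and 0.50 on day 6 untreated over 1541. Depth varied along the same ranking, and its part was not tested.

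**Figure D5:**
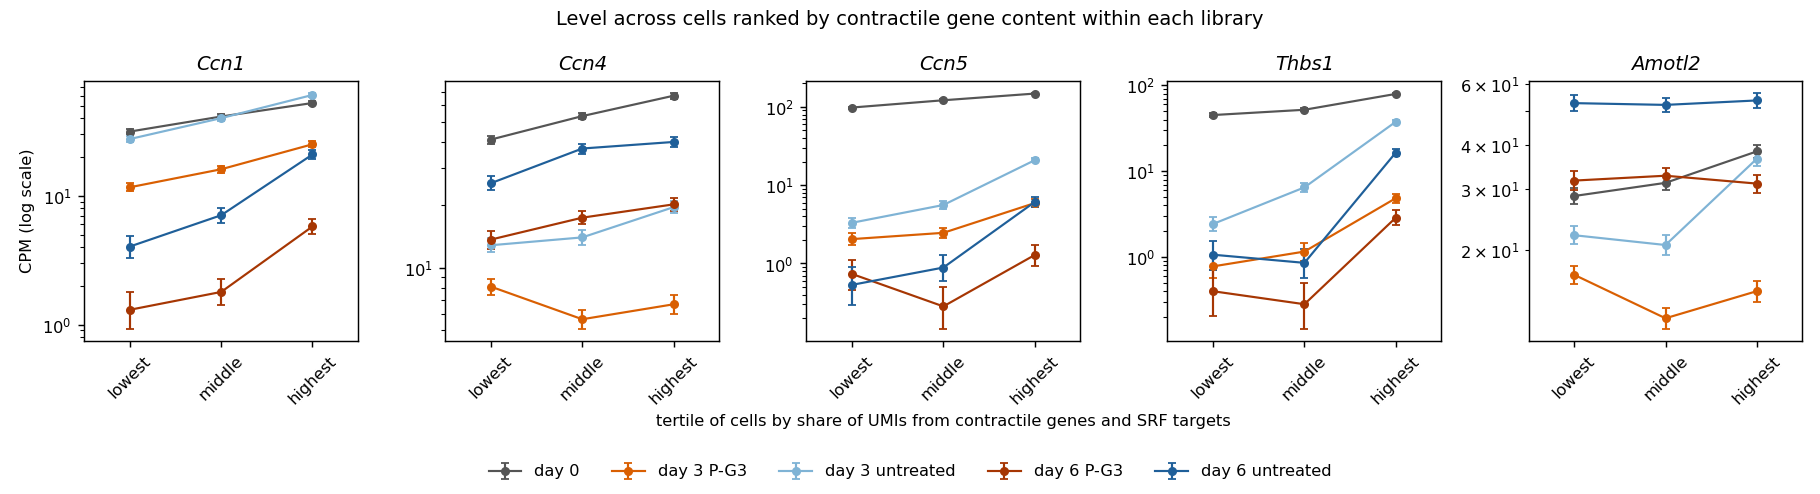
CPM on a log scale of 5 members in the lowest, middle and highest tertile of kept cells by their share of UMIs from contractile genes, ranked within each library, with exact Poisson 95% intervals (counting error only). Thbs1 on day 3 untreated spans 2.44 to 37.6 CPM, and Amotl2 20.7 to 36.6 CPM.

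Immediate early genes, transcription factors and other genes switched on within minutes by serum or handling, varied with Ccn1 and Thbs1 across cells. On day 3 untreated, Ccn1 was at 15.2, 38.2 and 91.0 CPM in the lowest, middle and highest tertile of cells by their share of immediate early UMIs. The median depth of these tertiles was 47273, 36425 and 27319 UMIs. On day 0 Ccn1 was at 29.1, 39.1 and 60.6 CPM and Thbs1 at 36.5, 52.6 and 92.4 CPM. Ccn5 on day 0 was at 120 CPM in the lowest tertile and 126 CPM in the highest. The median immediate early share per cell was 0.0600% on day 0, 0.0282% on day 3 P-G3, 0.0429% on day 3 untreated, 0.0297% on day 6 P-G3 and 0.0633% on day 6 untreated. It was thus lower in both P-G3 libraries, as Ccn1 was, and its part in the Ccn1 difference was not tested. Among the genes of this list with at least 20 CPM, Egr1 had a ratio of P-G3 to untreated of -1.57 on day 3 and -2.10 on day 6, Fosl1 one of 1.01 on day 3 and Junb one of -1.51 on day 6. Fosb, below 20 CPM in both day 3 libraries and named after its values were seen, was at -1.76 on day 3. Of 12 genes measured on day 3, 1 was higher and 3 were lower past 2-fold (median -0.66), and of 14 on day 6, 6 were lower and none higher (-0.90). Among all genes 2.38% were lower on day 3 and 4.12% on day 6, and 0.109% were higher on each day. The medians of all genes were -0.23 and -0.34.

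Other genes listed as YAP and TAZ targets lay mostly within 2-fold of day 0 on day 3 untreated, as most genes did. Of 15 measured on day 3 untreated against day 0, none was lower and 1 higher past 2-fold, with a median of -0.17. Among all genes 3.99% were lower and 6.40% higher, with a median of 0.08. Among them were the receptor tyrosine kinase gene Axl (-0.93) and the membrane repair gene Myof (-0.91). On day 6 against day 3 untreated, 3 were lower and 1 was higher, beside 5.92% and 6.97% of all genes. The higher one was the stress gene Gadd45a at 2.14, and Myof was at -1.88. With P-G3, 3 of 15 were lower on day 3 (median -0.82), among them Rbms3 (-1.36) and Myof (-1.06), and 5 of 14 on day 6 (-0.83), among them the tissue factor gene F3 (-1.15) and Ccdc80 (-1.08). Among all genes 2.38% were lower with P-G3 on day 3 and 4.12% on day 6, with medians of -0.23 and -0.34. With the length trend removed the medians of the listed targets were -0.37 and -0.28.

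Genes of the pathway upstream of these targets passed 2-fold on day 3 untreated about as rarely as all genes did. Among 26 Hippo kinase, adaptor and TEAD genes measured, 1 was higher and 1 lower past 2-fold on day 3 untreated against day 0, with a median of 0.18. These counts stand beside 6.40% higher and 3.99% lower of all genes, whose median was 0.08. The coactivator gene Yap1 was at 22.5 CPM on day 0, 17.6 CPM on day 3 with P-G3, 26.0 CPM on day 3 untreated, 18.8 CPM on day 6 with P-G3 and 29.0 CPM on day 6 untreated. Its partner gene Wwtr1, which encodes TAZ, was at 53.6, 31.2, 39.8, 53.1 and 81.4 CPM in that order, and so was highest on day 6 untreated, like Amotl2. Tead4 was higher on day 3 untreated than on day 0 (1.10), and Map4k4 was at 0.95. Vgll3 was lower on day 6 untreated than on day 3 (-2.08), at 6.24 CPM on day 6 against 29.6 CPM on day 3, and Wwtr1 was higher (1.02). With P-G3, 4 of 25 measured were lower on day 3, among them the kinase gene Map4k4 (-1.11) and the adaptor gene Wwc2 (-1.05), and 5 of 24 on day 6, with Map4k4 at -1.41 and Wwc2 at -1.07, and none was higher. The medians were -0.56 and -0.77, against -0.23 and -0.34 for all genes, and -0.28 and -0.24 with the length trend removed. The shares of all genes lower past 2-fold with P-G3 were 2.38% on day 3 and 4.12% on day 6.

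Among genes for receptors of CCN proteins and thrombospondin, the thrombospondin receptor gene Cd36 had the highest ratio on day 6 untreated against day 0. Of 12 measured on day 6 untreated against day 0, 3 were higher past 2-fold and 1 was lower, with a median of -0.14. Among all genes 16.2% were higher and 10.7% lower, with a median of 0.13. Cd36, which also takes up fatty acids and is one of the adipocyte markers, had a ratio of 7.76, the laminin-binding integrin gene Itga6 one of 3.67 and Notch1 one of 2.40, while the integrin gene Itgav was at -1.16. With P-G3 1 of 12 was lower on day 3, Lrp6 at -1.05 with Lrp1 at -0.99, and 2 of 12 on day 6, Lrp6 at -1.29 and Notch1 at -1.06. The shares of all genes lower with P-G3 were 2.38% and 4.12%. The medians of the receptor genes were -0.33 on day 3 and -0.60 on day 6, against -0.23 and -0.34 for all genes. With the length trend removed they were -0.01 and -0.13, and Lrp6 stood at -0.47 and -0.57.

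Contractile genes were mostly lower on day 3 untreated than on day 0, as Thbs1, Ccn4 and Ccn5 were. On day 3 untreated against day 0, 12 of 15 measured were lower past 2-fold and none higher, with a median of -1.62, led by Tagln (-3.65) and the myosin light chain gene Myl9 (-2.98). Among all genes 3.99% were lower and 6.40% higher in that comparison, with a median of 0.08. With P-G3, 3 of 15 were lower on day 3 (median -0.47), with Tagln at -1.97 and the smooth muscle actin gene Acta2 at -1.31. On day 6 it was 1 of 15 (-0.27), Tagln at -1.14, below 20 CPM in both libraries. Zyx (-0.80) and Cnn2 (-0.78) did not reach 2-fold on day 6. Among all genes 2.38% were lower on day 3 and 4.12% on day 6, with medians of -0.23 and -0.34. With the length trend removed the medians of the contractile genes were -0.35 and -0.09. Among other matricellular proteins, 4 of 10 measured were lower and 2 higher on day 3 untreated against day 0. The osteopontin gene Spp1 had a ratio of -4.88, the fibulin gene Fbln5 one of -1.61 and the periostin gene Postn one of 1.19. With P-G3 none of 8 passed 2-fold on day 3, where Fbln5 was at -0.99 and Postn at -0.86. On day 6, 2 of 7 were lower past 2-fold, Postn at -1.41 and Thbs2, below 20 CPM in both libraries, at -1.10. Sparc stood at -0.74.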

How the data were processed

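The authors deposited raw UMI counts, a matrix of genes by barcodes for each library, only for barcodes already called as cells. The build was GRCm38 and the tool Cell Ranger, version 3.1.0 in the submitters' processing notes and 5.0.1 per the file headers. The annotation release is not given in the sources used here. The libraries are 10x 3′ libraries, labelled as v2 chemistry.

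Barcodes with at least 500 genes and at most 20% mitochondrial UMIs were kept, 46.7% to 98.9% of each library. Doublets were not called, and an alternative left out the 5% of cells with most UMIs. Counts were summed over kept cells and scaled to CPM. Intervals are exact Poisson (levels), conditional binomial (ratios) and Clopper-Pearson (shares). Transcript lengths come from GENCODE vM21, in 20 bins. TMM used edgeR 4.0.16 and median-of-ratios scaling DESeq2 1.42.0, for scaling only. The other steps used Python 3.11.15, numpy 2.4.6 and scipy 1.17.1, and the ratio, interval and thinning steps were tested on simulated data.

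The members, 15 gene lists and comparisons were chosen with earlier results of these data known. Where the text names genes of a pathway list in a comparison, they come from the 4 with the largest ratio among those with at least 20 CPM. Yap1, Wwtr1 and Fosb were named after their values were seen, as were Tagln, Thbs2 and Ltbp1 for P-G3 on day 6. Of marker lists, summed levels or shares are given. For Ccn1, Ccn5 and Thbs1 the 3 nearest profiles are named, and those of Ccn2 are not reported here. The ranges of adipocyte content and the immediate early ranking were chosen after seeing the data.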

Additional observations from a re-analysis of the deposited data

Results flagged for a closer look

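The barcodes left out of all comparisons, for few genes or much mitochondrial RNA, also held molecules of the 8 genes above the level that 3 counts stand for. Summed over the members, their level was 233 CPM in 37 barcodes of day 0, 44.0 CPM in 61 barcodes of day 3 with P-G3 and 104 CPM in 97 barcodes of day 3 untreated. On day 6 it was 22.2 CPM in 2173 barcodes with P-G3 and 44.9 CPM in 2814 barcodes untreated. The kept cells of the same libraries summed to 318, 44.7, 109, 54.0 and 107 CPM in the same order. On day 6 the left-out barcodes thus had lower levels than the kept cells of their library, and the P-G3 sum was below the untreated one in both.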

How the results depend on the processing

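No paired analysis was possible because each group has 1 library. Of 76 counts of members recomputed under the alternatives, 65 lay within 1.5 times the first value. The count past 2-fold went to 2 in place of 4 for day 3 P-G3 against untreated with median-of-ratios scaling, to 1 in place of 2 for day 6 P-G3 against untreated without the 1% of cells richest in the members, and to 5 in place of 3 for day 6 untreated against day 0 with no minimum level. With at least 20 CPM required, it was 1 for day 3 P-G3 and 0 for day 6 P-G3 against untreated, 2 in place of 4 for day 6 against day 3 untreated, and 1 in place of 3 for day 6 against day 3 with P-G3, because fewer members were measured. In cells under 0.5% adipocyte UMIs, an alternative chosen after seeing the data, the count was 2 for day 3 P-G3 and 3 for day 6 P-G3 against untreated, 2 for day 6 against day 3 untreated, 1 for day 6 against day 3 with P-G3 and 1 for day 6 untreated against day 0. In these cells the log2 ratio of day 6 to day 3 untreated became 0.53 for Ccn5 and 1.32 for Thbs1, and that of day 6 untreated to day 0 became 0.38 for Ccn1 and 0.00 for Thbs1. On day 6 untreated, 10 of these cells held 77.4% of the Thbs1 UMIs, 52.5% of the Ccn5 UMIs and 37.05% of the Ccn1 UMIs. The cause of these changes was not tested. All 120 P-G3 ratios of the 5 members recomputed over the alternatives were below 0. They are the same 5 genes and libraries recomputed, not separate results. Among all genes, 46.7% to 76.4% were below 0 under the alternatives with a minimum level. With no minimum level it was 43.3% on day 3 and 43.5% on day 6 of all 32285 genes, including genes without a UMI, whose ratio is 0. One library per group limits every comparison, and below 5 CPM depth does too.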

Other observations

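TGF-beta signalling genes, read because thrombospondin 1 activates the ligand, were lower past 2-fold in 4 of 15 measured on day 3 untreated against day 0 and higher in 1, with a median log2 ratio of -0.25. Among all genes 3.99% were lower and 6.40% higher, with a median of 0.08. The inhibitory Smad7 had -1.60, and the latent TGF-beta binding protein gene Ltbp2 -1.06. With P-G3, 1 of 14 was lower past 2-fold on day 3 (median -0.61), Ltbp1 at -1.14, with Ltbp2 at -0.93. On day 6 it was 1 of 13 (-0.76), Ltbp1 at -1.11, below 20 CPM in both libraries. Ltbp2 (-0.94) and Tgfbr3 (-0.93) did not reach 2-fold on day 6. The medians of all genes were -0.23 and -0.34, and those of the list with the length trend removed -0.24 and -0.19. The shares of all genes lower with P-G3 were 2.38% on day 3 and 4.12% on day 6. Only 2 of 11 Wnt targets were measured, of which Ccnd1 was lower on day 6 untreated than on day 0 (-3.73) and Lef1 higher (1.55).

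Ranked by genes of dividing cells, Ccn1 on day 3 untreated was at 65.9 CPM in the lowest, 39.8 CPM in the middle and 29.4 CPM in the highest tertile. On day 0 the values were 45.2, 38.4 and 43.8 CPM. Ccn5 was at 5.03, 2.58 and 2.97 CPM on day 3 with P-G3, highest in the lowest tertile, and at 7.72, 6.82 and 13.1 CPM on day 3 untreated, highest in the highest. The median adipocyte share of these tertiles was 0.28%, 0.81% and 0.56% with P-G3 and 0.17%, 0.29% and 0.18% untreated. Median depth rose from the lowest to the highest tertile in both libraries. The part of either was not tested.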
